A study of Mus musculus with 25 samples.

Results

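The nuclear genes of the mitochondrial respiratory chain and ATP synthase were followed in livers of mice on a steatohepatitis regimen with or without mannose. Members were the genes named Nduf with a, b, c, s or v and a number, Sdh with a to d, Uqcr, Cox4 to Cox8 and Atp5, with at least 10 counts in at least 3 of the 25 libraries. Of 92 matching symbols, 7 were left out for pseudogene names and 3 for low counts (Cox7b2, Cox8c and a second gene listed as Atp5o). This left 82 of 56980 genes in the table, of which 20746 passed the same count rule. They comprised 35 members of complex I, 4 of complex II, 8 of complex III, 18 of complex IV and 17 of complex V. Ndufa4 was counted in complex IV, of which its protein is a subunit, although its name is of complex I.

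Male C57BL/6J mice began at 8 weeks of age and livers were profiled after 12 weeks. The FAT-MASH regimen combined a chow rich in sucrose (41%), fat (21.1%) and cholesterol (1.25%) with fructose and glucose in the water and a carbon tetrachloride injection each week, and all FAT-MASH groups received it. Mannose at 5% or 20% in the drinking water was given for all 12 weeks (prevention) or the last 6 (therapy). The first batch held 3 libraries each of normal diet, FAT-MASH, 5% prevention, 20% prevention, 5% therapy and 20% therapy. The second held normal chow without mannose (2 libraries), with 5% (2) and with 20% mannose (3) for 12 weeks. The labels give each library as a biological replicate and name neither cage nor litter, so p-values measure the spread between these libraries.

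Complex I passes electrons from NADH, and complex II those from succinate, to coenzyme Q. Complex III hands them on to cytochrome c, complex IV reduces oxygen, and complex V uses the proton gradient built along the way to make ATP. The hepatocyte is rich in mitochondria and depends on this chain to oxidise fat and to fuel urea and glucose synthesis. Most subunits are encoded in the nucleus, and the core of every complex except II also needs subunits encoded in mitochondrial DNA. Those 13 mitochondrially encoded genes were listed at 0 counts in all 25 libraries, so only the nuclear side was measured.

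Levels below are CPM, the counts of a gene relative to the size of its library, TMM-scaled within a batch, and library totals ran from 31298299 to 56010646 counts. Comparisons are log2 fold changes with their SE from edgeR's quasi-likelihood test, and a gene was called at a Benjamini-Hochberg adjusted p under 0.05 over all tested genes. In bulk liver, fewer cells of a type and less RNA per cell cannot be told apart. All 8 hepatocyte markers were present in every group, with a summed level of 90596 to 101388 CPM in FAT-MASH, 75811 to 93334 in 20% prevention and 62115 to 69621 in 20% therapy. Of these 8, 5 were called lower in 20% prevention and 6 in 20% therapy. The 6 proliferation markers were all called higher in both, from a sum of 8.00 to 12.8 CPM in FAT-MASH to 68.3 to 79.4 in 20% prevention and 96.6 to 292.8 in 20% therapy. Of 7 cholangiocyte markers, 4 and 5 were called higher. Of 7 stellate markers 0 and 2 were called higher, of 8 macrophage markers 0 and 1, and of 4 neutrophil markers 0 and 2. Of 6 endothelial markers 0 and 1 were called lower. In FAT-MASH against normal diet, 6 of 8 macrophage, 4 of 7 stellate and 2 of 4 neutrophil markers were called higher and 3 of 8 hepatocyte markers lower. In both 20% groups, calls among hepatocyte, proliferation and cholangiocyte markers came together with calls among the members. Of the 20% groups, only therapy had calls among stellate, macrophage, neutrophil and endothelial markers. In FAT-MASH against normal diet, 1 of 81 tested members was called. The part of the markers in the member results was not tested.

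Genes of the chain are known to share binding sites for NRF1, the ETS factor GABPA, YY1 and estrogen-related receptors, and 5 promoters are shown because their genes mark the range of responses reported below. They are RefSeq windows of 300 bases, 250 before and 50 after the annotated start, in GRCm38.p6 coordinates, which differ from the GRCm39 build of the counts. Capitals mark matches on either strand to the NRF1 core GCGCATGC, whose opposite orientations can overlap, to the ETS core CCGGAAG, to the YY1 letters AAGATGGC or to the receptor element AAGGTCA. Sdhb, the steepest complex II fall, lies at chr4:140961021-140961320 on the plus strand. The window of Uqcr11, a small complex III subunit, is chr10:80406772-80407071 on the minus strand. Atp5e, the epsilon subunit of ATP synthase, has its window at chr2:174464052-174464351 on the minus strand. Ndufa9, a complex I subunit, is at chr6:126849095-126849394 on the minus strand, and Sdha, the complex II flavoprotein whose value in 20% prevention was nearest 0 in its complex, is at chr13:74350191-74350490 on the minus strand.
Sdhb: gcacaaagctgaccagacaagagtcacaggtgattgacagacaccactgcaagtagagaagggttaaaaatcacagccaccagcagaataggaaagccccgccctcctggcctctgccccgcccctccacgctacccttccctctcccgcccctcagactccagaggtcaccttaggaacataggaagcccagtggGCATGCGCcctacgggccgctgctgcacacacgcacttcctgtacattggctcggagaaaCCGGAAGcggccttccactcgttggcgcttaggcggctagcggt
Uqcr11: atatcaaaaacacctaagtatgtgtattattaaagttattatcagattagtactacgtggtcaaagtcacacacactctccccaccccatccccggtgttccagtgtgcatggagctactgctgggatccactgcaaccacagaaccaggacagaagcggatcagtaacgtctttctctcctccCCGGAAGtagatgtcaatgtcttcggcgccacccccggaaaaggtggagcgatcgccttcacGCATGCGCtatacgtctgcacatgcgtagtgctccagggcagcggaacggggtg
Atp5e: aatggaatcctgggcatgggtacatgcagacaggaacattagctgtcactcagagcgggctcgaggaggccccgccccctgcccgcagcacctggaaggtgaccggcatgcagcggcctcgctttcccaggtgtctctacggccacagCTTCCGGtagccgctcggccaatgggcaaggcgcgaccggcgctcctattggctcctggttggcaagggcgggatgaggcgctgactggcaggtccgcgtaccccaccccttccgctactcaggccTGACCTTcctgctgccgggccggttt
Ndufa9: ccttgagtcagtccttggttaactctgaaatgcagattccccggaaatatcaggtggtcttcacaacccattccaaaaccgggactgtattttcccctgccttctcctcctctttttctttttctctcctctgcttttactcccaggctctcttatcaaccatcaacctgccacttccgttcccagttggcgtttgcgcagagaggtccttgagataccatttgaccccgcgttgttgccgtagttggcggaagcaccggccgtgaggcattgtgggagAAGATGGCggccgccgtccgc
Sdha: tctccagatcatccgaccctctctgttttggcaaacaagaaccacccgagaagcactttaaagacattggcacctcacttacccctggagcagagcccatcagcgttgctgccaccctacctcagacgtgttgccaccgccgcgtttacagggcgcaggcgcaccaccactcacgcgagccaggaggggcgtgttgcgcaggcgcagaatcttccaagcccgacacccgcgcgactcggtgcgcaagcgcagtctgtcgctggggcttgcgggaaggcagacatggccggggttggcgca
The Sdhb and Uqcr11 windows each hold an NRF1 and an ETS match, Atp5e an ETS and a receptor-element match, Ndufa9 a YY1 match, and the Sdha window holds none of these letters. A window was found for 65 of the 82 members and for 27025 genes in all. The NRF1 core was in 10 of these 65 members (15.4%) against 3.05% of all genes, and the ETS core in 16 (24.6%) against 9.93%. YY1 letters were in 9 (13.8%) against 3.19%, and 7 of those 9 belong to complex I. The receptor element was in 8 (12.3%) against 5.38%, while the general promoter letters GGGCGG were in 25 (38.5%) against 38.2% and CCAAT in 28 (43.1%) against 41.1%. Of members called lower in both 20% groups on FAT-MASH, 4 of 37 with a window held the NRF1 core, beside 3 of 12 among those called in neither. The ETS core was in 11 of those 37 and 2 of those 12. YY1 letters were in 4 of those 37 and 3 of those 12, and the receptor element in 4 and 4. Only the ETS core had the larger share among members called lower in both. A match is a description of the letters, not of a site in use.

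In FAT-MASH against normal diet, 1 of 81 tested members was called higher and 0 lower, while 7.81% of all 19571 tested genes were called higher and 5.92% lower. The member median was -0.08 (all genes 0.03). The exception was Cox7a2l, whose protein has been described as a factor for supercomplexes of complexes III and IV. Neither supercomplexes nor the activity of this protein in these mice were measured. The level of Cox7a2l was 106, 115 and 101 CPM in the normal diet libraries and 145, 128 and 150.0 in FAT-MASH. The groups did not overlap, and the rise was 0.39 ± 0.09 (SE; edgeR adjusted p = 0.00632). Without FAT-MASH replicate 3 it was 0.33, with an edgeR adjusted p of 0.0502. With library totals alone as scaling, 4 members were called higher, Cox7a2l among them, beside 1877 of all 19571 genes. DESeq2 called 3 members, Cox7a2l higher and Ndufs7 and Ndufa11, core and accessory subunits of complex I, lower.

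On the regimen, members of all 5 complexes were lower with 20% mannose in both schedules. With 20% prevention, 64 of 81 members were called lower and 0 higher against FAT-MASH, beside 8.26% of all genes lower. Their median was -0.50 and that of all genes 0.01. With 20% therapy, 48 of 81 were called lower and 0 higher, beside 11.3% of all genes, with a median of -0.42 against 0.00. At 5%, 1 member (Cox7a2l) was called lower with prevention, beside 1.31% of all genes, with a median of -0.22. Therapy at 5% had 0 called by edgeR, DESeq2 or voom (9 of 81 at an unadjusted p under 0.05), beside 0.0102% of all genes lower, with a median of -0.15. These 4 contrasts share the same 3 FAT-MASH libraries.

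**Figure D1:**
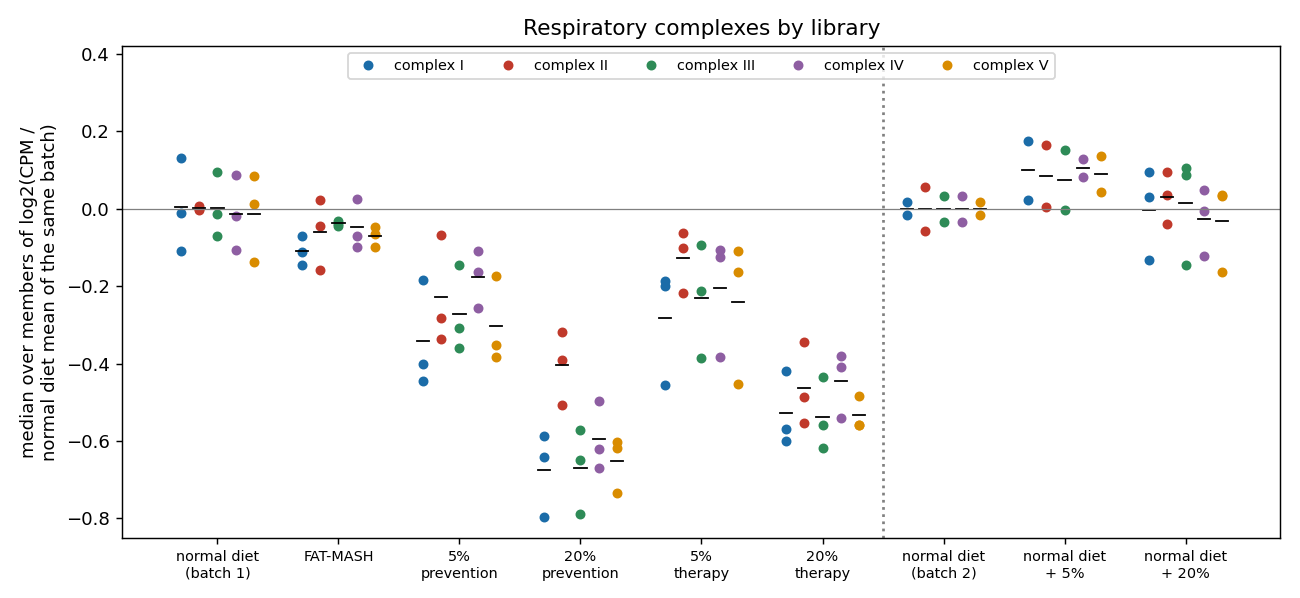
Median over the members of each complex of the log2 ratio of CPM to the normal diet mean of the same batch (y axis), for each library (points) of each group (x axis), with short lines for group means and members with a mean of at least 1 CPM. Complex I lay at -0.80 to -0.59 in the 20% prevention libraries, -0.60 to -0.42 in 20% therapy and -0.14 to -0.07 in FAT-MASH, while the normal diet libraries with 20% mannose lay at -0.13 to 0.09.

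The plot of complex medians by library shows where the groups separated. For complex I, 20% prevention (-0.80 to -0.59) and 20% therapy (-0.60 to -0.42) lay wholly below FAT-MASH (-0.14 to -0.07). Complex III medians were -0.79 to -0.57 in 20% prevention and -0.62 to -0.44 in 20% therapy, and those of complex V -0.74 to -0.60 and -0.56 to -0.48. The 5% libraries ranged more widely, for complex I from -0.44 to -0.18 with prevention and from -0.46 to -0.19 with therapy. These are ratios of levels to the normal diet mean, with no test.

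Abundant genes as a whole leaned the same way, which the members' counts are to be read against. Of 3118 tested genes with a mean of at least 50 CPM, 23.1% were called lower in 20% prevention (median -0.06) and 31.0% in 20% therapy (median -0.12). Of the 100 most abundant genes, 55 and 71 were called lower, with medians of -0.43 and -0.62. Scaling also set part of the size. With library totals alone in place of TMM, the median of all genes stood at 0.20 for 20% prevention and 0.30 for 20% therapy, and 52 and 12 members were called lower. The member medians were then -0.32 and -0.12, and Ndufa8 and Cox6b2 were called higher with 20% therapy. Over all genes the split of calls was 949 lower and 3066 higher for 20% prevention in place of 1616 and 1336, and 1113 and 5407 for 20% therapy in place of 2206 and 1989. The member median minus the median of all genes was -0.52 under either scaling for prevention and -0.42 for therapy. A change of scaling shifts all genes of a comparison nearly alike, so this difference could hardly move. It is no test of whether the falls hold under another scaling.

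**Figure D2:**
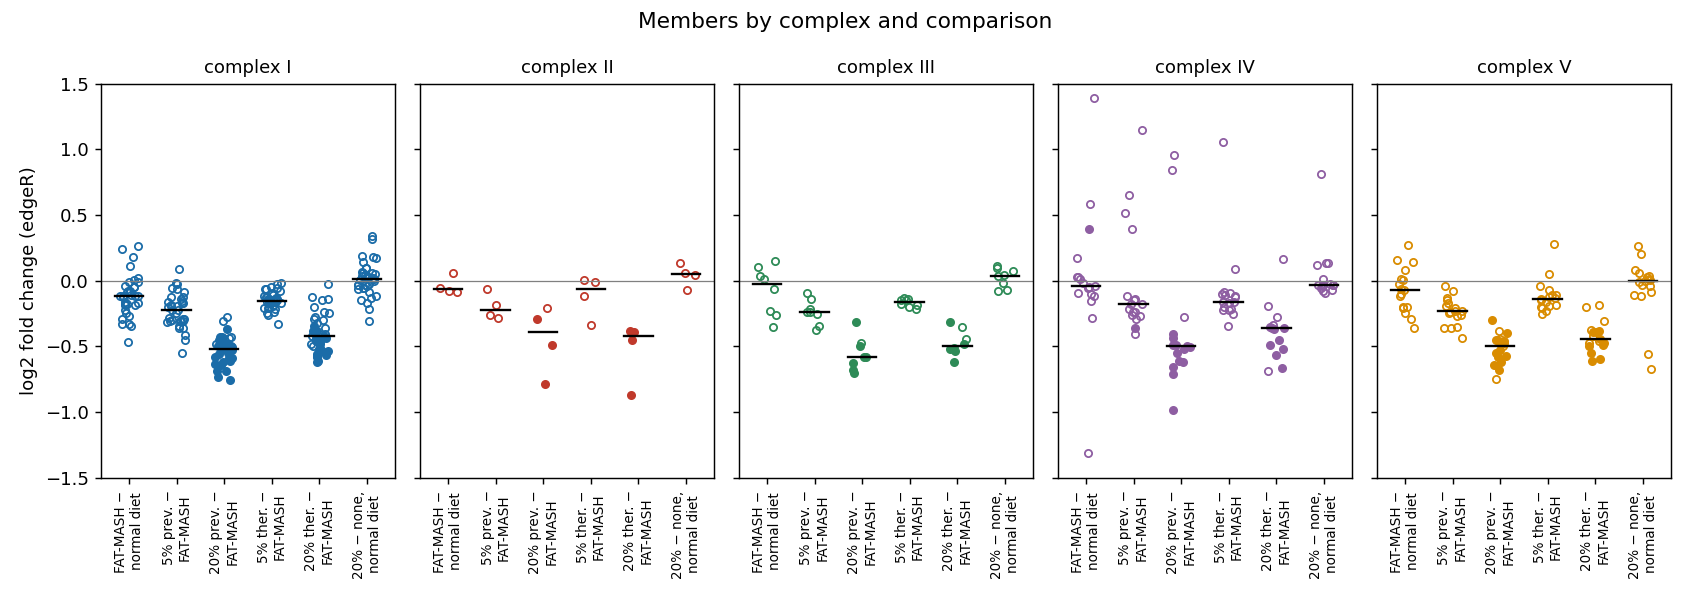
Log2 fold change (y axis) of every tested member by complex (panels) in 6 comparisons (x axis); filled points passed an edgeR adjusted p of 0.05, open points did not, and black lines are medians. Filled points cluster below 0 in the 20% prevention and 20% therapy columns of all 5 complexes and are absent from the normal diet column; 6 points of low-count members lie outside the axis of -1.5 to 1.5.

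Share of each library's counts gives the members summed, relative to the library total alone and without TMM. All members together held 1.39% to 1.40% of counts in FAT-MASH, 1.10% to 1.16% in 20% prevention and 1.25% to 1.27% in 20% therapy. Both 20% groups lay below all 3 FAT-MASH libraries, and so did both 5% groups. The share was 1.24% to 1.36% in 5% prevention, 1.21% to 1.35% in 5% therapy and 1.32% to 1.42% in normal diet of the first batch. The 20% therapy libraries lay within the range of each 5% group. In the second batch the share was 1.21% and 1.32% without mannose, 1.27% and 1.38% with 5% and 1.18% to 1.27% with 20%. Complex V, with abundant Atp5b and Atp5a1, held the most, 0.468% to 0.484% in FAT-MASH, and complex II the least, 0.114% to 0.128%.

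In complex I, 28 of 35 members fell in 20% prevention and 19 in 20% therapy, with medians of -0.52 and -0.42. All 35 had a fold change below 0 in both. Ndufv3, a small subunit of the NADH-oxidising arm, was 88.0, 79.9 and 75.8 CPM in FAT-MASH, 49.0, 51.4 and 43.9 in 20% prevention and 52.4, 54.0 and 52.0 in 20% therapy. Neither mannose group overlapped FAT-MASH. The changes were -0.76 ± 0.14 (SE; edgeR adjusted p = 0.00121) and -0.62 ± 0.14 (SE; edgeR adjusted p = 0.00342), the steepest of the complex in each. With library totals the therapy value of Ndufv3 was -0.32 and not called (edgeR adjusted p = 0.0668). In 5% prevention the libraries split, at 53.7, 52.1 and 77.6 CPM, and the value of -0.41 ± 0.14 was not called (edgeR adjusted p = 0.146).

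The electron path through complex I runs from FMN on Ndufv1 along iron-sulfur clusters of Ndufs1 towards coenzyme Q. Ndufv1 was 169.5, 181 and 169 CPM in FAT-MASH, 131, 131 and 105 in 20% prevention and 108, 125 and 124 in 20% therapy. It changed by -0.50 ± 0.10 (SE; edgeR adjusted p = 0.00253) and -0.54 ± 0.10 (SE; edgeR adjusted p = 8.18e-04), with no overlap in either. Ndufs1 was 141, 148 and 159 CPM in FAT-MASH, 125, 105 and 103 in 20% prevention and 96.7, 114 and 104 in 20% therapy, and changed by -0.43 ± 0.10 (SE; edgeR adjusted p = 0.00587) and -0.51 ± 0.10 (SE; edgeR adjusted p = 9.06e-04). With library totals as scaling both Ndufs1 calls were lost, at -0.25 and -0.21 (edgeR adjusted p = 0.0565 and 0.0797). Ndufs1 was 132, 120.1 and 122 CPM on normal diet, all below FAT-MASH, a difference of 0.26 ± 0.10 that was not called (edgeR adjusted p = 0.0896), but was called with library totals (0.33, edgeR adjusted p = 0.0178) and by voom (0.27, adjusted p = 0.041). Ndufs3, a core subunit near the coenzyme Q site, was 74.1, 91.6 and 82.5 CPM in FAT-MASH against 54.4, 49.98 and 49.6 and 53.7, 59.8 and 52.6. Its changes were -0.69 ± 0.10 (SE; edgeR adjusted p = 1.97e-04) and -0.58 ± 0.10 (SE; edgeR adjusted p = 3.97e-04).

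Ndufa9, which sits beside the coenzyme Q channel, was 118, 121 and 115 CPM in FAT-MASH, 89.6, 85.1 and 84.4 in 20% prevention and 72.2, 83.0 and 76.6 in 20% therapy. It changed by -0.45 ± 0.08 (SE; edgeR adjusted p = 9.37e-04) and -0.61 ± 0.08 (SE; edgeR adjusted p = 2.45e-05). Ndufa1, a membrane-arm subunit needed for assembly, was 80.3, 74.3 and 71.0 CPM in FAT-MASH, 43.5, 52.9 and 39.0 with 20% prevention and 55.8, 55.2 and 50.2 with 20% therapy. Only the first change was called, at -0.74 ± 0.18 (SE; edgeR adjusted p = 0.00824), beside -0.48 ± 0.18 (SE; edgeR adjusted p = 0.0612), while the difference between schedules, 0.25 ± 0.18, was not called (edgeR adjusted p = 0.654). The 7 complex I members not called in 20% prevention were Ndufa3, Ndufa12, Ndufb2, Ndufb3, Ndufb4, Ndufs4 and Ndufs6, with values from -0.59 (Ndufb4) to -0.27 (Ndufs4). Ndufb2 and Ndufb4 were low, at 7.79 and 11.9 CPM in FAT-MASH, and reads they share with near-identical copies would not have been counted.

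Complex II, the only complex wholly encoded in the nucleus and also an enzyme of the citric acid cycle, had values that ranged from -0.79 to -0.20 among its 4 subunits in 20% prevention. Sdhb, which carries its iron-sulfur clusters, was 289, 272 and 322 CPM on normal diet and 258, 288 and 287 in FAT-MASH. It was 219, 235 and 231 CPM in 5% prevention, 171, 155 and 156 in 20% prevention, 237, 208 and 215 in 5% therapy and 148, 158 and 148 in 20% therapy. Every mannose library lay below every FAT-MASH library, and those at 20% lay below those at 5%. The 20% changes were -0.79 ± 0.09 (SE; edgeR adjusted p = 2.14e-05) and -0.87 ± 0.09 (SE; edgeR adjusted p = 1.44e-06), and the 5% ones, not called, -0.28 ± 0.09 (SE; edgeR adjusted p = 0.113) and -0.34 ± 0.09 (SE; edgeR adjusted p = 0.283).

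Sdha, the flavoprotein that oxidises succinate, was 507, 525 and 575 CPM in FAT-MASH, 497, 469 and 429 in 20% prevention and 368, 438 and 420.4 in 20% therapy. The prevention libraries all lay below the lowest FAT-MASH library, but the value of -0.20 ± 0.10 (SE; edgeR adjusted p = 0.21) was not called. Therapy gave -0.39 ± 0.10 (SE; edgeR adjusted p = 0.0104). That call was lost without FAT-MASH replicate 3 (edgeR adjusted p = 0.0572), without 20% therapy replicate 1 (0.0698) and with library totals alone as scaling (0.489). Within a library, the ratio of Sdhb to Sdha counts depends on no scaling. It was 0.498 to 0.549 in FAT-MASH, 0.331 to 0.364 in 20% prevention and 0.353 to 0.403 in 20% therapy. Neither 20% group overlapped FAT-MASH. The ratio was 0.434 to 0.536 in 5% prevention and 0.392 to 0.424 in 5% therapy, which did not overlap FAT-MASH either. On normal diet of the first batch it was 0.482 to 0.634. On normal diet of the second batch it was 0.459 to 0.491, and 0.390 to 0.435 with 20% mannose, again without overlap.

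The membrane anchors of complex II, Sdhc and Sdhd, which hold its heme and coenzyme Q site, fell as well. Sdhd was 241, 239 and 251 CPM in FAT-MASH, 189, 172 and 159 in 20% prevention and 172, 192 and 171 in 20% therapy, and changed by -0.49 ± 0.10 (SE; edgeR adjusted p = 0.00184) and -0.45 ± 0.10 (SE; edgeR adjusted p = 0.00223). With library totals the therapy value of Sdhd was -0.15 and not called (edgeR adjusted p = 0.186). Sdhc was 216, 235 and 245 CPM in FAT-MASH, 195, 193 and 179 and 171, 193 and 170.3, with changes of -0.29 ± 0.09 (SE; edgeR adjusted p = 0.0361) and -0.38 ± 0.09 (SE; edgeR adjusted p = 0.00554). Neither 20% group overlapped FAT-MASH for either anchor.

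In complex III, 7 of 8 members fell in 20% prevention and 6 in 20% therapy, with medians of -0.58 and -0.50. Uqcrc1, a large core subunit facing the matrix, was 305, 331 and 312 CPM in FAT-MASH, 220.2, 217 and 198 in 20% prevention and 187, 213 and 217 in 20% therapy. It changed by -0.58 ± 0.10 (SE; edgeR adjusted p = 6.91e-04) and -0.62 ± 0.10 (SE; edgeR adjusted p = 1.74e-04). Uqcrfs1, the Rieske iron-sulfur protein that passes electrons to cytochrome c1, was 363, 361 and 365 CPM in FAT-MASH against 277, 256 and 238 and 236, 276 and 239.7, with changes of -0.50 ± 0.09 (SE; edgeR adjusted p = 0.00107) and -0.54 ± 0.09 (SE; edgeR adjusted p = 2.82e-04). Both genes were without overlap between each 20% group and FAT-MASH.

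Uqcrq, a subunit next to cytochrome b, was 531, 521 and 519 CPM in FAT-MASH, 323, 354 and 287 in 20% prevention and 349, 411 and 365 in 20% therapy. It changed by -0.71 ± 0.10 (SE; edgeR adjusted p = 1.72e-04) and -0.48 ± 0.10 (SE; edgeR adjusted p = 0.0021). Uqcr11 was 122, 134 and 118 CPM in FAT-MASH, 68.6, 96.7 and 68.2 in 20% prevention and 89.4, 96.2 and 89.5 in 20% therapy, and changed by -0.68 ± 0.19 (SE; edgeR adjusted p = 0.0198) and, not called, -0.44 ± 0.19 (SE; edgeR adjusted p = 0.11). Its prevention call was lost without FAT-MASH replicate 2 (edgeR adjusted p = 0.0755), without 20% prevention replicate 1 (0.0864) or 3 (0.0831) and with library totals as scaling (0.0582). Uqcrh, the hinge protein at the cytochrome c1 site, fell from 201 to 232 CPM to 133 to 147 in 20% prevention and 134 to 164 in 20% therapy, at -0.63 ± 0.10 (SE; edgeR adjusted p = 3.96e-04) and -0.51 ± 0.10 (SE; edgeR adjusted p = 0.00106). Uqcrb, a small matrix-side subunit, was called in neither (-0.48 and -0.35).

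Of 17 tested complex IV members, 13 fell in 20% prevention and 9 in 20% therapy, with medians of -0.49 and -0.36. Cox4i1, the common form of the regulatory subunit 4, was 499, 516 and 450.1 CPM in FAT-MASH, 329, 377 and 318 in 20% prevention and 373, 397 and 368 in 20% therapy. It changed by -0.52 ± 0.10 (SE; edgeR adjusted p = 0.0018) and -0.36 ± 0.10 (SE; edgeR adjusted p = 0.0143). The therapy call was lost without FAT-MASH replicate 2 (edgeR adjusted p = 0.0842), without 20% therapy replicate 1 (0.0533) or 3 (0.0674), and with library totals as scaling (0.645). Cox5a, a matrix-side subunit, was 121, 132 and 109 CPM in FAT-MASH, 86.9, 102 and 84.6 in 20% prevention and 97.8, 108 and 93.3 in 20% therapy. It changed by -0.40 ± 0.11 (SE; edgeR adjusted p = 0.0135) and, not called, -0.28 ± 0.11 (SE; edgeR adjusted p = 0.0718). The prevention call was lost without FAT-MASH replicate 2 (edgeR adjusted p = 0.0892), without 20% prevention replicate 1 (0.0632) or 3 (0.0707), and with library totals (0.121).

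Cox7b, a small membrane subunit of complex IV, was 207, 197 and 204 CPM in FAT-MASH, 122, 141 and 109 in 20% prevention and 126, 137 and 119.6 in 20% therapy. It changed by -0.71 ± 0.12 (SE; edgeR adjusted p = 5.65e-04) and -0.67 ± 0.12 (SE; edgeR adjusted p = 4.54e-04) with no overlap. Cox6c, another small subunit, was 401, 316 and 322 CPM in FAT-MASH, 225, 246 and 209 and 238, 253 and 211, and changed by -0.61 ± 0.12 (SE; edgeR adjusted p = 0.00182) and -0.57 ± 0.12 (SE; edgeR adjusted p = 0.00202). With library totals the therapy value of Cox6c was -0.26 and not called (edgeR adjusted p = 0.0716). Cox6c2, a near copy of Cox6c at 8.79 to 9.50 CPM in FAT-MASH, changed by -0.98 ± 0.26 (SE; edgeR adjusted p = 0.0136) in prevention. Reads that Cox6c and Cox6c2 share cannot be split between them, so the value of Cox6c2 is uncertain, and its call was lost without 20% prevention replicate 3 (edgeR adjusted p = 0.0654). Ndufa4 was 454, 449 and 428 CPM in FAT-MASH, 329.7, 333 and 281 in 20% prevention and 305, 350.0 and 291 in 20% therapy, with changes of -0.49 ± 0.10 (SE; edgeR adjusted p = 0.00204) and -0.49 ± 0.10 (SE; edgeR adjusted p = 0.00126).

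Cox7a2l, which was higher in FAT-MASH than on normal diet, was lower with mannose than in FAT-MASH. Both differences rest on the same FAT-MASH libraries. Against 145, 128 and 150.0 CPM in FAT-MASH it was 106, 119 and 104 in 5% prevention, 105, 99.5 and 97.0 in 20% prevention, 129, 112 and 121 in 5% therapy and 99.5, 99.5 and 96.1 in 20% therapy. Except for 5% therapy replicate 1, at 129 CPM, all mannose libraries lay below all FAT-MASH libraries. The changes were -0.36 ± 0.09 (SE; edgeR adjusted p = 0.0408) for 5% prevention, -0.49 ± 0.09 (SE; edgeR adjusted p = 0.00112) for 20% prevention and -0.52 ± 0.09 (SE; edgeR adjusted p = 3.45e-04) for 20% therapy. Against normal diet, 20% prevention and 20% therapy differed by -0.09 ± 0.09 (SE; edgeR adjusted p = 0.468) and -0.12 ± 0.09 (SE; edgeR adjusted p = 0.316), so neither was called. The 5% prevention call did not pass without FAT-MASH replicate 1 or 3, without 5% prevention replicate 1 or 3, with the replicate block, with the groups compared alone, without the filter on low counts or with library totals.

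In complex V, 13 of 17 members fell in 20% prevention and 10 in 20% therapy, with medians of -0.50 and -0.45. Atp5b, the catalytic beta subunit and by CPM the most abundant member, was 1314, 1354 and 1397 CPM in FAT-MASH, 1174, 1125 and 996 in 20% prevention and 951, 980.1 and 1051 in 20% therapy. It changed by -0.30 ± 0.10 (SE; edgeR adjusted p = 0.0369) and -0.45 ± 0.10 (SE; edgeR adjusted p = 0.00196). The prevention call was near the threshold and was lost without any 1 of the 3 FAT-MASH libraries, without 20% prevention replicate 2 or 3, without the filter on low counts, with the replicate block, with only the groups compared and with library totals. Atp5a1, the alpha subunit that forms the catalytic head with beta, was 1104, 1171 and 1248 CPM in FAT-MASH against 967, 887 and 818 and 779, 857 and 862, with changes of -0.40 ± 0.09 (SE; edgeR adjusted p = 0.00696) and -0.50 ± 0.09 (SE; edgeR adjusted p = 7.71e-04). With library totals both Atp5a1 calls were lost, at -0.22 and -0.20 (edgeR adjusted p = 0.0561 and 0.0646), and so was the therapy call of Atp5b, at -0.15 (edgeR adjusted p = 0.189).

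The rotor of ATP synthase is made of the c ring with gamma, delta and epsilon. Atp5e, the epsilon subunit, was 237, 245 and 243 CPM in FAT-MASH, 142, 167 and 142 in 20% prevention and 168, 196 and 188 in 20% therapy, with changes of -0.68 ± 0.11 (SE; edgeR adjusted p = 2.64e-04) and -0.39 ± 0.11 (SE; edgeR adjusted p = 0.0106). Atp5c1, the gamma subunit, was 272, 276 and 297 CPM in FAT-MASH, 218, 208 and 190.3 and 173, 195 and 186, and changed by -0.46 ± 0.09 (SE; edgeR adjusted p = 0.00227) and -0.61 ± 0.09 (SE; edgeR adjusted p = 9.31e-05). Both genes had no overlap between a 20% group and FAT-MASH. Of the 3 genes for the same c subunit, Atp5g3 fell in both schedules, at -0.55 ± 0.11 (SE; edgeR adjusted p = 0.0018) and -0.38 ± 0.11 (SE; edgeR adjusted p = 0.0153). Atp5g1 fell in prevention, at -0.46 ± 0.13 (SE; edgeR adjusted p = 0.019), and Atp5g2, at 2.72 ± 0.642 CPM in FAT-MASH (SD, n = 3), was called in neither.

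Atp5j2, subunit f, was 237, 237 and 225 CPM in FAT-MASH, 156, 156 and 136 in 20% prevention and 168, 179 and 157 in 20% therapy, with changes of -0.64 ± 0.11 (SE; edgeR adjusted p = 7.58e-04) and -0.47 ± 0.11 (SE; edgeR adjusted p = 0.00502). Atp5o, the subunit that ties the stalk to the head, was 38.1, 30.6 and 36.3 CPM in FAT-MASH, 24.7, 23.1 and 22.6 and 24.5, 23.1 and 21.8, and changed by -0.58 ± 0.16 (SE; edgeR adjusted p = 0.0152) and -0.60 ± 0.16 (SE; edgeR adjusted p = 0.00882). With library totals the therapy value of Atp5o was -0.29 and not called (edgeR adjusted p = 0.143). The 4 members called in neither were Atp5g2, Atp5k, Atp5l and Atp5s, with values in prevention from -0.75 (Atp5k) to -0.38 (Atp5l). Atp5if1, the inhibitor of the synthase, is listed as Atpif1 in the symbol table and so is not a member. Atpif1 was at -0.08 ± 0.19 in 20% prevention and 0.50 ± 0.19 in 20% therapy, neither called (edgeR adjusted p = 0.83 and 0.0665). Against normal diet it was called higher in 20% therapy (0.85 ± 0.19, edgeR adjusted p = 0.00155) and not in 20% prevention (0.27 ± 0.19, edgeR adjusted p = 0.305).

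**Figure D3:**
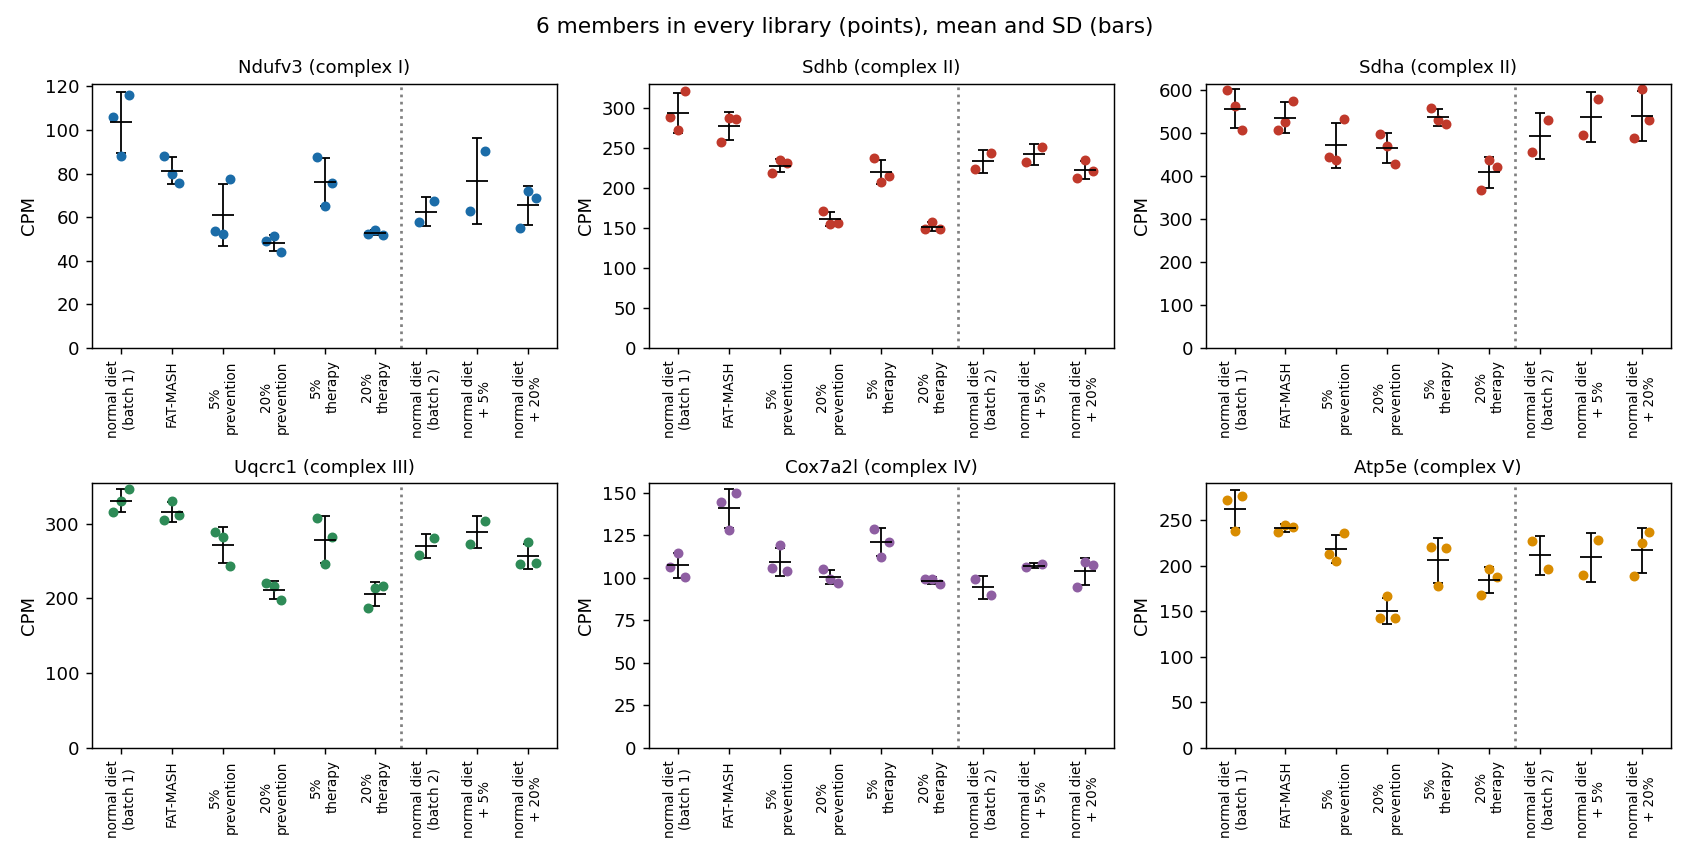
CPM (y axis, from 0) of 6 members in every library (points) of each group (x axis), with bars for the group mean and SD. Sdhb lay at 155 to 171 CPM in 20% prevention and 148 to 158 in 20% therapy against 258 to 288 in FAT-MASH, Sdha stayed nearer its FAT-MASH level in 20% prevention (429 to 496 against 507 to 575), and Cox7a2l was highest in FAT-MASH.

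Isoforms of restricted tissues were rare in these livers beside their common counterparts. Cox4i2, the form of subunit 4 known from lung, stayed under 1 CPM in every first-batch library, against 318 to 526 for Cox4i1. Cox6a2 and Cox7a1, known from heart and muscle, reached 0.480 and 2.49 CPM there, against 271 to 473 for Cox6a1 and 133 to 223 for Cox7a2. Cox8b, known from muscle and brown fat, reached 0.384 CPM in the first batch and was not tested there. In the second batch it was 1.51 and 0 CPM without mannose, 0 and 0 with 5% and 1.67, 5.86 and 2.56 with 20%, so that it passed the count rule through 4 libraries of that batch, and Cox8a was 181 to 251 CPM in all 7. The 5 fat markers summed to 20.6 to 63.6 CPM in the normal diet libraries with 20% mannose, 2.72 and 18.9 without mannose and up to 0.534 with 5%. The 8 muscle markers summed to 0.577 to 62.8 CPM with 20% mannose, 0.867 and 9.89 without and up to 0.970 with 5%. No marker of either list was at 0 in all 3 libraries with 20% mannose, and their part in the Cox8b values was not tested.

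Cox6b2, the form of subunit 6b known from testis, was called higher in 20% therapy than on normal diet. It was 0.0548, 0.444 and 0.490 CPM on normal diet, 0.534, 0.479 and 0.451 in FAT-MASH, 1.77, 1.03 and 0.463 in 5% prevention, 0.484, 1.09 and 1.06 in 20% prevention, 0.883, 1.14 and 1.03 in 5% therapy and 2.05, 1.17 and 1.18 in 20% therapy, while Cox6b1 was 149 to 251 CPM in the first batch. All libraries of 20% therapy and of 5% therapy lay above all normal diet and FAT-MASH libraries. The highest 5% prevention library lay within the 20% therapy range, while 20% prevention replicate 1, at 0.484 CPM, lay within the FAT-MASH range. It rose against normal diet by 2.16 ± 0.59 (SE; edgeR adjusted p = 0.0073) and stood at a value against FAT-MASH, not called by edgeR, of 1.58 ± 0.57 (SE; edgeR adjusted p = 0.0533). Over the first batch Cox6b2 held few reads, so these folds rest on small counts. DESeq2 called it higher against FAT-MASH as well, while a fit of all 25 libraries with a batch term called it in neither comparison.

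Levels compared per length give an order among subunits. Divided by kilobases of annotated exon, FAT-MASH levels in complex IV were highest for Cox6a1 (578 CPM per kb) and Cox8a (423). Atp5a1 (375) and Atp5b (320) led complex V, Uqcrq (286) and Uqcrfs1 (266) complex III, Sdhd (198) complex II and Ndufa2 (199.7) complex I. Sdha and Sdhb, equal in number in the enzyme, were at 129.8 and 124 CPM per kb in FAT-MASH. Exon length summed over all annotated transcripts can exceed that of the transcript in use, so this order is approximate.

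Dose was compared within each schedule. Under prevention, 2 of 81 members were called lower at 20% than at 5%, beside 0.337% of all genes, with a member median of -0.30. These were Sdhb at -0.50 ± 0.09 (SE; edgeR adjusted p = 0.0254) and Atp5e at -0.54 ± 0.11 (SE; edgeR adjusted p = 0.0365). DESeq2 called 24 lower in place of 2, and leaving out 5% prevention replicate 3 or 20% prevention replicate 2 left 0. Under therapy, 27 were called lower at 20%, beside 9.33% of all genes, with a median of -0.30, among them 11 of complex I, 3 of complex II, 5 of complex III, 2 of complex IV and 6 of complex V. Sdhb was -0.54 ± 0.09 (SE; edgeR adjusted p = 3.25e-04). This count moved to 9 without 20% therapy replicate 1, 14 without replicate 3, 11 without 5% therapy replicate 1 and 14 without replicate 3. With library totals alone the median of all genes stood at 0.29, and 1 member (Sdhb) was called lower and 3 (Ndufa8, Cox7a2 and Ndufs4) higher.

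Schedule was compared at 20%. Therapy against prevention gave 0 members called by edgeR, DESeq2 or voom (9 of 81 at an unadjusted p under 0.05), beside 0.0562% of all genes lower, with a member median of 0.14. Of the 65 members called in 1 or both schedules, 47 were lower in both, 17 in prevention alone and 1, Sdha, in therapy alone. The 17 were Atp5g1, Atp5h, Atp5mpl, Cox5a, Cox5b, Cox6c2, Cox7a2, Ndufa1, Ndufa11, Ndufa2, Ndufa5, Ndufa8, Ndufb6, Ndufb8, Ndufc1, Ndufc2 and Uqcr11. Those called in neither were Atp5g2, Atp5k, Atp5l, Atp5s, Cox4i2, Cox6a2, Cox6b2, Cox7a1, Cox8b, Ndufa12, Ndufa3, Ndufb2, Ndufb3, Ndufb4, Ndufs4, Ndufs6 and Uqcrb, among them isoforms of restricted tissues and low-count subunits. Since the direct comparison had 0 calls, the difference between schedules was not shown for any of these 18. With library totals alone, Ndufa8, Atp5e and Cox7a2 were called higher in therapy than in prevention.

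Against normal diet rather than FAT-MASH, the 20% groups stood lower still. With 20% prevention 68 of 81 members were called lower, beside 15.1% of all genes, with a median of -0.61. With 20% therapy 61 were called lower, beside 16.7% of all genes, and 1 (Cox6b2) higher, beside 19.4%, with a median of -0.49. In prevention 33 of 35 complex I members were called lower and in therapy 28. These contrasts share the 3 normal diet libraries with each other and the mannose libraries with the contrasts above. With library totals alone, the median of all genes stood at 0.28 and 0.39, and 50 and 16 members were called lower and 1 and 4 higher.

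On normal diet, no member passed the test at either dose of mannose. At 20%, 0 of 81 members were called by edgeR, DESeq2 or voom (0 at an unadjusted p under 0.05), beside 0.0% of 18462 genes lower, and the member median was 0.01. At 5%, 0 were called by all 3 tools (2 at an unadjusted p under 0.05), beside 0.0% lower, with a median of 0.10. Groups here held 2 or 3 libraries. Sdhb was 223 and 244 CPM without mannose, 233 and 251 with 5% and 212, 235 and 221 with 20%, so the groups overlapped, and the 20% value was -0.07 ± 0.10 (SE; edgeR adjusted p = 0.998). Atp5b was 1262 and 1214, 1289.9 and 1296 and 1225, 1285 and 1226 CPM. The 20% libraries overlapped those without mannose, and the 20% value was 0.01 ± 0.09 (SE; edgeR adjusted p = 0.999).

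A library without mannose stood apart for Ndufv2. Ndufv2, which carries the first iron-sulfur cluster of the NADH arm, was 126 and 59.1 CPM in the libraries without mannose, 123 and 132 with 5% and 119, 115 and 113 with 20%. In all first-batch libraries it lay between 101 and 167 CPM. Without normal diet replicate 4, which leaves the low library alone in its group and takes the spread from the others, edgeR called Ndufv2 higher at both doses.

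The effect of 20% mannose for 12 weeks was then compared between diets, as 20% prevention against FAT-MASH minus 20% mannose against none on normal diet, in a fit of all libraries with a batch term. Of 82 members 27 were called lower in this difference and 0 higher, beside 3.41% of 21373 genes lower, with a median of -0.51. They comprised 12 of complex I, 2 of complex II, 4 of complex III, 3 of complex IV and 6 of complex V. Sdhb had the smallest adjusted p, with a difference of -0.72 ± 0.13 (SE; edgeR adjusted p = 0.00222). The difference for Sdha was -0.34 ± 0.16 (SE; edgeR adjusted p = 0.243) and was not called. Each effect was measured within its own batch, and the regimen adds sugars in the water and carbon tetrachloride to its chow. The chow, the sugared water, the carbon tetrachloride and the batch in which an effect was measured cannot be told apart.

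Other members with large differences in the diet comparison were Ndufa2, an accessory subunit of complex I, and Uqcrq. Ndufa2 was 114, 118 and 111 CPM in FAT-MASH and 67.4, 80.9 and 72.2 in 20% prevention, and 61.8 and 75.3 on normal diet without and 70.1, 89.9 and 101 with 20% mannose. The difference was -0.98 ± 0.26 (SE; edgeR adjusted p = 0.0236). It was lost without normal diet replicate 4 (edgeR adjusted p = 0.136), FAT-MASH replicate 2 (0.0518), 20% prevention replicate 1 (0.0529) or normal diet 20% mannose replicate 3 (0.0706), and with library totals (0.0649). Uqcrq was 401 and 378 CPM on normal diet without and 341, 435 and 471 with 20% mannose, and its difference was -0.80 ± 0.18 (SE; edgeR adjusted p = 0.00836). Uqcrh differed by -0.67 ± 0.15 (SE; edgeR adjusted p = 0.00935) and Sdhd by -0.54 ± 0.14 (SE; edgeR adjusted p = 0.0243). The Uqcrh call was lost without normal diet replicate 5 (edgeR adjusted p = 0.0639). That of Sdhd was lost without normal diet replicate 4 (edgeR adjusted p = 0.073) or 5 (0.0798), 20% prevention replicate 2 (0.0517) or 3 (0.0584), or normal diet 20% mannose replicate 2 (0.0624) or 3 (0.0548), without the filter (0.0531) and with library totals (0.119). In complex IV, Cox7b differed by -0.69 ± 0.17 (SE; edgeR adjusted p = 0.0197) and Cox7a2l by -0.62 ± 0.14 (SE; edgeR adjusted p = 0.00771). The Cox7b call was lost without normal diet replicate 4 (edgeR adjusted p = 0.0967) or normal diet 20% mannose replicate 3 (0.0611) and with library totals (0.0669), and that of Cox7a2l with library totals (0.0529). In complex V, Atp5e differed by -0.72 ± 0.17 (SE; edgeR adjusted p = 0.0133) and Atp5j2 by -0.65 ± 0.17 (SE; edgeR adjusted p = 0.0204). The Atp5e call was lost without normal diet replicate 5 (edgeR adjusted p = 0.0712). That of Atp5j2 was lost without normal diet replicate 4 (edgeR adjusted p = 0.079) or 5 (0.066), FAT-MASH replicate 2 (0.0526) or normal diet 20% mannose replicate 3 (0.0677), and with library totals (0.0695). On normal diet Atp5e was 227 and 197 CPM without and 189, 225 and 237 with 20% mannose, and Cox7a2l was 99.1 and 89.7 and 94.9, 109 and 107. Ndufv2 differed by -0.85 ± 0.24 (SE; edgeR adjusted p = 0.0353), and by -0.40 without normal diet replicate 5 (edgeR adjusted p = 0.175). Its call was also lost without either of FAT-MASH replicates 1 and 2, either of 20% prevention replicates 2 and 3 or any of the 3 normal diet 20% mannose libraries, and with library totals (edgeR adjusted p from 0.0612 to 0.0779). The count of 27 moved to 8 without normal diet replicate 4, 13 without replicate 5, 13 without FAT-MASH replicate 1, 11 without FAT-MASH replicate 2 and 12 without 20% prevention replicate 3. It moved to 13 and 9 without 20% mannose replicate 2 and 3 on normal diet. With library totals alone the median of all genes stood at 0.23 and 6 members were called lower.

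**Figure D4:**
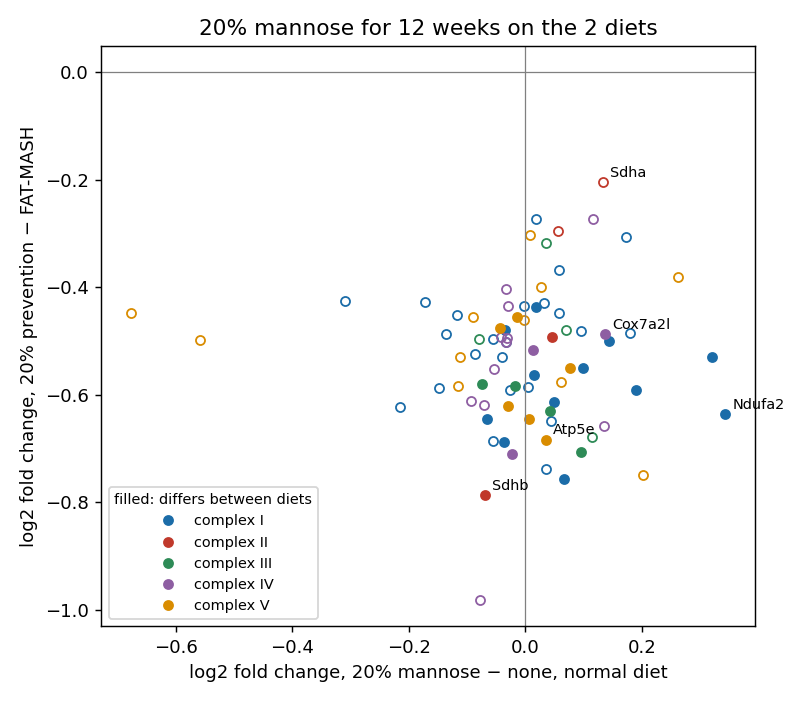
Log2 fold change of each member for 20% mannose against none on normal diet (x axis) and for 20% prevention against FAT-MASH (y axis), coloured by complex, for 78 members tested in both batches (low-count Cox6a2 and Cox6b2 not drawn); filled points were called in the difference between diets. All 78 drawn lay below 0 on the y axis, and 39 of them lay below 0 on the x axis. The undrawn Cox6a2 and Cox6b2 lay above 0 on the y axis scale.

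The plot of both diets shows the drawn members spread on either side of 0 on normal diet, 39 of 78 below it. All 78 drawn lay below 0 on the regimen. Low-count Cox6a2 and Cox6b2, not drawn, and Cox4i2, not tested on normal diet, lay above 0 there. Of all tested members, 78 of 81 lay below 0 in 20% prevention. The x axis spans wider errors, from groups of 2 and 3 libraries.

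Genes around the chain were followed by lists. Of 17 complex I assembly factors 5 were called lower and 0 higher in each 20% group, with medians of -0.30 in prevention and -0.25 in therapy. Among them Dmac1, needed for the distal membrane arm, changed by -0.65 ± 0.10 in prevention (edgeR adjusted p = 1.69e-04) and Ndufaf1 by -0.63 ± 0.12 in therapy (edgeR adjusted p = 6.46e-04). Of 20 tested complex IV assembly factors 3 were called lower and 1 higher in prevention, and 2 lower and 2 higher in therapy, with medians of -0.19 and 0.02. Lower calls made up 8.26% and 11.3% of all tested genes, and 1336 and 1989 of the 19571 were called higher. The list counts here and below are to be read against these, and the complex IV counts in therapy are near them. Cmc1 and Cox14, which act on the mitochondrially encoded core subunit, changed by -0.50 ± 0.10 and -0.55 ± 0.11 in prevention (edgeR adjusted p = 0.00144 and 0.00149). Surf1, a factor for the heme-bearing core, changed by -0.47 ± 0.10 in therapy (edgeR adjusted p = 0.00268). In prevention 1 of 4 complex II, 1 of 6 complex III and 2 of 5 complex V factors were called lower, among them Sdhaf4 at -0.64 ± 0.14, Uqcc3 at -0.86 ± 0.15 and Fmc1 at -0.77 ± 0.14. In therapy these counts were 1, 2 and 2.

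Coenzyme Q, the mobile carrier between the first complexes and complex III, is made by enzymes of which 4 of 13 were called lower in each 20% group, with medians of -0.30 and -0.24. Coq8a, an atypical kinase that regulates the pathway, had group means of 774 CPM in FAT-MASH, 369.9 in 20% prevention and 298 in 20% therapy. It changed by -1.07 ± 0.12 and -1.38 ± 0.12 (edgeR adjusted p = 1.38e-05 and 2.34e-07). Of 9 tested carriers and enzymes that feed electrons in, 4 were called lower in each and 1 higher in therapy. Prodh, proline dehydrogenase, changed by -0.999 ± 0.15 and -1.40 ± 0.15 (edgeR adjusted p = 1.64e-04 and 1.74e-06), and was lower in FAT-MASH than on normal diet (-1.14 ± 0.15, edgeR adjusted p = 3.00e-05). Etfa, which brings electrons from fat oxidation, changed by -0.59 ± 0.09 in therapy (edgeR adjusted p = 7.45e-05), and Sqor, sulfide quinone oxidoreductase, by -0.53 ± 0.11 in prevention (edgeR adjusted p = 0.00216). Cycs, cytochrome c, was called in neither (-0.19 ± 0.24 and 0.05 ± 0.24).

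The citric acid cycle and pyruvate dehydrogenase list had calls in both directions. Over all 19571 tested genes, 1336 were called higher in 20% prevention and 1989 in 20% therapy. Of 18 genes, 6 were called lower and 1 higher in 20% prevention, and 6 lower and 3 higher in therapy, with medians of -0.08 and -0.10. Idh3b, a subunit of the NAD-linked isocitrate dehydrogenase, changed by -0.57 ± 0.08 and -0.65 ± 0.08 (edgeR adjusted p = 1.86e-04 and 1.55e-05). Suclg2, a subunit of succinyl-CoA ligase, changed by -0.45 ± 0.09 and -0.69 ± 0.09 (edgeR adjusted p = 0.0019 and 1.73e-05). It was 0.52 ± 0.09 higher in FAT-MASH than on normal diet, a difference that uses the same FAT-MASH libraries. Of 16 mitochondrial carriers, pores and import genes, 5 and 2 were called lower and 0 higher, beside 8.26% and 11.3% of all genes lower. The therapy count is near that share. Slc25a5, an ADP/ATP carrier, was at -0.35 ± 0.09 and -0.46 ± 0.09 (edgeR adjusted p = 0.0162 and 0.00145). Of 4 tested genes among uncoupling proteins and alternative isoforms, 2 and 1 were called lower and 0 higher, with Higd2a, a complex IV assembly factor, at -0.60 ± 0.10 and -0.47 ± 0.10.

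Regulators of respiratory genes also had calls in both directions, to be read against the same counts over all genes. Of 18, 3 were called lower and 1 higher in 20% prevention, and 4 lower and 3 higher in 20% therapy, with medians of -0.06 and -0.27. Sirt3, a mitochondrial deacetylase, changed by -0.62 ± 0.12 and -0.98 ± 0.12 (edgeR adjusted p = 0.00159 and 9.91e-06). Ppargc1a, a coactivator of respiratory genes, was higher in FAT-MASH than on normal diet (0.81 ± 0.25, edgeR adjusted p = 0.0346). Against the same FAT-MASH libraries it was lower in both 20% groups (-0.80 ± 0.25 and -1.26 ± 0.25, edgeR adjusted p = 0.0312 and 9.77e-04). Esrra, an estrogen-related receptor, changed by -0.42 ± 0.12 and -0.38 ± 0.12 (edgeR adjusted p = 0.0182 and 0.022). Pprc1, a coactivator of the same family as Ppargc1a, rose by 0.86 ± 0.22 and 0.90 ± 0.22 (edgeR adjusted p = 0.0102 and 0.00516). Of the other factors whose letters were searched in the promoters, Nrf1, Gabpa and Yy1 were called in neither 20% group. Nrf1 was at 0.10 ± 0.12 and -0.01 ± 0.12, Gabpa at -0.03 ± 0.12 and -0.19 ± 0.12, and Yy1 at -0.14 ± 0.09 and -0.24 ± 0.09. None of the listed genes was called for 20% mannose on normal diet.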

How the data were processed

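Liver polyadenylated RNA of 25 mice was sequenced. Reads were aligned with STAR and counted with featureCounts 2.0.6 on GRCm39, per the submitters' processing notes; the header of the deposited table names featureCounts 2.0.1 and GENCODE M31. The authors deposited raw counts per gene, from 31298299 to 56010646 per library; reads that map to several places are left out by featureCounts unless it is told otherwise, which lowers genes with near copies. Gene symbols were matched by gene ID. Members and gene lists were chosen with earlier results of these data known. From the counts, edgeR 4.0.16 quasi-likelihood tests (R 4.3.3) were fitted per batch on 19571 and 18462 genes that passed its filter on low counts, with TMM scaling and Benjamini-Hochberg adjustment over all of them, and with a batch term on 21373 genes for the difference between diets. Alternatives were DESeq2 1.42.0, voom in limma 3.58.1, other scalings, no filter, a replicate block, other sets of libraries, and leaving out each library. Members described in full were 12 core subunits and related genes, up to 2 with the largest called rise or fall per complex and comparison, and isoforms of restricted tissues; of each list, up to 2 genes with the smallest p were named. Ndufa4, Sdhc, Atp5g1, Atp5g3, Cycs, Esrra, Pprc1, Ppargc1a, Nrf1, Gabpa and Yy1 were also described outside this rule in some comparisons, after their values were seen. On simulated counts for FAT-MASH against normal diet (19571 genes), 22% of genes changed by 0.5 on the log2 scale and 79% of those changed by 1 were recovered, and for 20% mannose on normal diet (18462 genes) 4% and 74%. No libraries were duplicates: the lowest chi-square per degree of freedom between replicates was 21.2.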

Additional observations from a re-analysis of the deposited data

Results flagged for a closer look

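The effect of 20% mannose for 12 weeks differed between the FAT-MASH regimen and normal diet for 27 members, by the test of the difference itself. All 27 were lower, beside 3.41% of 21373 genes lower, and the regimen and the batch cannot be told apart. On the log2 scale the differences were -0.98 for Ndufa2, -0.85 for Ndufv2, -0.72 for Sdhb, -0.54 for Sdhd, -0.80 for Uqcrq, -0.67 for Uqcrh, -0.69 for Cox7b, -0.62 for Cox7a2l, -0.72 for Atp5e and -0.65 for Atp5j2. Ndufv2 stood at -0.40 (edgeR adjusted p = 0.175) without normal diet replicate 5, where it was at 59.1 CPM beside 126.5 in replicate 4. Without that same library Atp5e, Uqcrh, Sdhd and Atp5j2 were lost too (edgeR adjusted p = 0.0712, 0.0639, 0.0798 and 0.066). Without normal diet replicate 4, Ndufa2, Cox7b, Sdhd and Atp5j2 were lost (edgeR adjusted p = 0.136, 0.0967, 0.073 and 0.079). Ndufa2, Ndufv2, Sdhd, Cox7b and Atp5j2 were lost as well without some libraries of the other groups. With library totals as scaling they were lost too, as was Cox7a2l (edgeR adjusted p from 0.0529 to 0.119). Under that scaling 6 members were called in place of 27. Sdhb was called under every alternative that was run.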

How the results depend on the processing

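Counts of members called in either direction are given here. They stayed within 1.5 times for 20% prevention (64; 50 to 61 with 1 library left out), for 20% prevention against normal diet (68; 63 to 69) and, except with library totals alone as scaling, for 20% therapy (48; 36 to 46) and 20% therapy against normal diet (62; 56 to 62). Library totals alone gave 14 for 20% therapy (12 lower, 2 higher), 20 for 20% therapy against normal diet (16 lower, 4 higher), 4 for 20% against 5% therapy (1 lower, 3 higher), 3 for therapy against prevention (all higher), 6 for the difference between diets (all lower), 0 for 5% prevention and 4 for FAT-MASH against normal diet (all higher). For FAT-MASH against normal diet (1), DESeq2 gave 3, RLE size factors 2, no filter 5, voom 3, all 25 libraries 3 and only the groups compared 4, with 0 to 2 when 1 library was left out. For 5% prevention (1), DESeq2 gave 4, no filter 5, voom 6 and only the groups compared 0, with 0 to 8 when 1 library was left out. For 20% against 5% prevention (2), DESeq2 gave 24, no filter 11, voom 12, all 25 libraries 5 and only the groups compared 0, with 0 to 1 when 1 library was left out. For 20% against 5% therapy (27), only the groups compared gave 13, with 9 to 39 when 1 library was left out. Without the filter, 1 member (Cox8b) was called at each dose on normal diet, and leaving out 1 library gave 0 to 1 at 5% and 0 to 2 at 20%. The difference between diets (27) ranged from 8 to 28 when 1 library was left out. With TMM-scaled library sizes as denominator, the mean share of counts was 1.54% on normal diet in place of 1.38%, 1.49% in FAT-MASH in place of 1.40%, 1.06% in 20% prevention in place of 1.13% and 1.09% in 20% therapy in place of 1.26%. The cause of these changes was not tested. Among values of single members under the alternatives, 979 kept their side of the threshold, 104 lost a call and 11 gained one. Where either fit made a call, 0 changed direction. Some values called in neither fit did change direction, such as Cox5a in 20% therapy, which ran from -0.34 to 0.02 over the settings.

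The replicate numbers were not shown to pair libraries: of 45 pairs 9 correlated above 0.1, from -0.371 to 0.358. With the replicate block, 62 members were called in 20% prevention, 47 in 20% therapy, 23 in 20% against 5% therapy, 68 and 63 in the 20% groups against normal diet, 1 in 20% against 5% prevention, 0 in 5% prevention and 1 in FAT-MASH against normal diet. The block could not be fitted for normal diet with mannose or for the difference between diets. On normal diet, groups of 2 and 3 libraries limit what could be called.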
